A study of Rattus norvegicus with 17 samples.

Results

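Glucose uptake, glycolysis, lactate handling, pyruvate entry into mitochondria and the creatine system are described here for single sensory neurons of the rat dorsal root ganglion through 32 listed genes. The genes were listed by name, with earlier results of these data known, and 31 of the 32 genes had a row among the 32883 gene rows of the counts. Gapdh was not analysed here. The neurons came from lumbar dorsal root ganglia of adult, naive, male Sprague Dawley (SD) rats. They were picked singly by mouth pipette after plating and profiled from the 3' ends of polyadenylated RNA, tagged with unique molecular identifiers (UMIs), by a variant of Smart-seq2. The protocols describe collection after 15 min, of fluorescently labelled cells, and after 72 hours of culture, of cells with neurites, and the labels do not say which batch had which, nor which animals it held. All 17 labelled samples form 1 group with no treatment compared, and each sample is a batch of cells; the protocol gives at least 5 rats per time point. Batch 21 repeats the counts of batch 20, so 16 batches with 1040 cells were used.

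A minimum of 2000 detected genes left 967 cells, with 4307 to 1514406 UMIs each (median 139374). Batches held 3812280 to 26065847 UMIs. No other cells had identical counts, and no cell name was shared between batches. Cells were sorted into 8 gates by named genes: each gate gene needed at least 3 UMIs and at least 20 counts per 1000000 UMIs (CPM) in the cell. The gates were Gzmbl3+Lpar3 (a granzyme B-like gene and a lysophosphatidic acid receptor; 53 cells), Nmu+Lad1 (neuromedin U and ladinin; 23 cells), Sst+Nppb (somatostatin and natriuretic peptide B; 90 cells), Clmp (an adhesion molecule; 215 cells), Trpm8 (the cold-gated channel; 29 cells), Th (tyrosine hydroxylase; 35 cells), Ntsr1+Chrna3 (the neurotensin receptor and a nicotinic receptor subunit; 65 cells) and Pvalb+Vsnl1 (the calcium binders parvalbumin and visinin-like; 4 cells). A gate is a set of cells with these transcripts and carries no cell type name. Of 141 cells that passed several gates, 55 could not be placed and were left out, and 398 cells passed none. UMIs were summed per batch and gate where at least 3 cells were present, which gave 61 sums of 70217 to 8145335 UMIs from 457 cells in 7 gates, and each sum is 1 replicate. With batch as a term, p-values measure how differences between gates vary from batch to batch. Nothing in the labels says that batches came from separate animals, so that variation may be technical. In a sum, fewer cells with a transcript and less of it per cell cannot be told apart.

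All 8 neuronal markers, among them Tubb3, Uchl1, Snap25 and Stmn2, were present in every fitted gate, with a summed level of 4938 to 19439.7 CPM per sum. Of the 4 vessel markers, 3 were in the counts, and Cldn5 was at 0 in every gate. Median depth per cell was 381095 UMIs in Gzmbl3+Lpar3 cells, 331524 in Nmu+Lad1 cells, 160257.5 in Sst+Nppb cells, 214240 in Clmp cells, 203653 in Trpm8 cells, 230804 in Th cells and 345459 in Ntsr1+Chrna3 cells.

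Neurons take up glucose through facilitative transporters, break it down in glycolysis to pyruvate, and either reduce the pyruvate to lactate or pass it into mitochondria. Lactate dehydrogenase is a tetramer of A and B subunits: the A subunit, from Ldha, favours the step from pyruvate to lactate, and the B subunit, from Ldhb, the step back. Monocarboxylate transporters carry lactate across the membrane, the mitochondrial pyruvate carrier brings pyruvate inside, and pyruvate dehydrogenase kinases switch off its oxidation. Creatine kinases buffer ATP, with a cytosolic brain form and a mitochondrial form. Several of these genes are textbook targets of hypoxia-inducible factors, whose binding element has the core letters ACGTG.

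Because 4 members stood higher in Gzmbl3+Lpar3 cells under every processing alternative tried, their promoters are shown here, each running from 250 bases before to 50 bases after the gene's start. The sequences are from RefSeq on GRCr8, which is a later build than the Rnor_6.0 of the counts. Capitals mark ACGTG on either strand. CACGTG reads the same on both strands and holds it on each.
Slc2a1 (chr5:138002272-138002571, plus strand): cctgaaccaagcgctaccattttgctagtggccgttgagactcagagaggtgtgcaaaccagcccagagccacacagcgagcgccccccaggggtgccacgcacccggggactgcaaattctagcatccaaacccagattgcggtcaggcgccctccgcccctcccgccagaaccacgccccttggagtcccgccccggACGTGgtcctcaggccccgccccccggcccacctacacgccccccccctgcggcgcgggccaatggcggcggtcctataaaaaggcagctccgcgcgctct
Slc16a1 (chr2:194812410-194812709, plus strand): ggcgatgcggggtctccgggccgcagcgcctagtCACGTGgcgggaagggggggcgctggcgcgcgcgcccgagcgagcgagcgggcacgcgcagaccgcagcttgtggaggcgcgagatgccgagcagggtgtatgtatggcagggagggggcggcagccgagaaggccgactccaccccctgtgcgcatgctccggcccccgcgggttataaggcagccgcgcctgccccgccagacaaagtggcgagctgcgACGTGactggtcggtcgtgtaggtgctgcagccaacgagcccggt
Slc16a3 (chr10:106712078-106712377, plus strand): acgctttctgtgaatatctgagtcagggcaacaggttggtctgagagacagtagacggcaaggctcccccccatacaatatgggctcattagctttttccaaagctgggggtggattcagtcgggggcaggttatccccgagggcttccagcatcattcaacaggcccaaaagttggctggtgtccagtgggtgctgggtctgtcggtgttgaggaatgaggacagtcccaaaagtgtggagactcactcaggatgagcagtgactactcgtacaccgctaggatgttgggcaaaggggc
Pdk1 (chr3:77113264-77113563, plus strand): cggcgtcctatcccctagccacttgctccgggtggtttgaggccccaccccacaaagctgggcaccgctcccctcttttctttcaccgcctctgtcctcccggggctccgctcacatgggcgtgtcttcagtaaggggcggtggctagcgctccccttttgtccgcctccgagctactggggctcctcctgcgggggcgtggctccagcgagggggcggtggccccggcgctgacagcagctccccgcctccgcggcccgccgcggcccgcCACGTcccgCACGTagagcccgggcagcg
Counting both strands, the letters occurred once in the Slc2a1 window, at 3 places in that of Slc16a1, at 2 in that of Pdk1 and nowhere in that of Slc16a3. Of the 32 listed genes, 30 matched 34 promoter windows, and 16 of these windows (47.1%) held the letters, against 19.3% of all 33469 promoter windows of the same length and 24.1% of the 17132 windows within the members' range of GC content (50.3% to 73.3%). Among the 7 members higher in Gzmbl3+Lpar3 cells, 3 had a window with the letters. A match of 5 letters is a description of the window only.

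Most energy genes differed in level between the gates. Of the 32 members, 26 passed the filter on low counts, and 20 of these 26 were called across the gates, against 31.6% of all 12396 genes tested (edgeR's quasi-likelihood F-test over the gates with batch as a term, Benjamini-Hochberg adjusted p under 0.05). Among called members the largest ratios of the highest to the lowest gate median were those of Ckmt1, with 21.1 CPM in Trpm8 sums and 2.48 CPM in Gzmbl3+Lpar3 sums, and of Slc16a3, with 89.9 CPM in Gzmbl3+Lpar3 sums and 11.5 CPM in Th sums. The 6 members that were not called were Hk1, Pfkm, Pfkfb2, Pfkfb3, Pdha1 and Pdhb, with adjusted p between 0.133 and 0.614. They hold the first hexokinase, the muscle-type phosphofructokinase, both fructose bisphosphate regulators and both subunits of the E1 component of pyruvate dehydrogenase. When each gate was set against the mean of the other 6, 28 member-by-gate differences were called over 16 members. Of all genes tested, the share called in either direction ran from 0.653% in Th cells to 15.6% in Gzmbl3+Lpar3 cells. For every one of these 28 the range of the gate's sums overlapped the range of the other gates' sums. The share of such overlap over all genes is not given here.

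**Figure D1:**
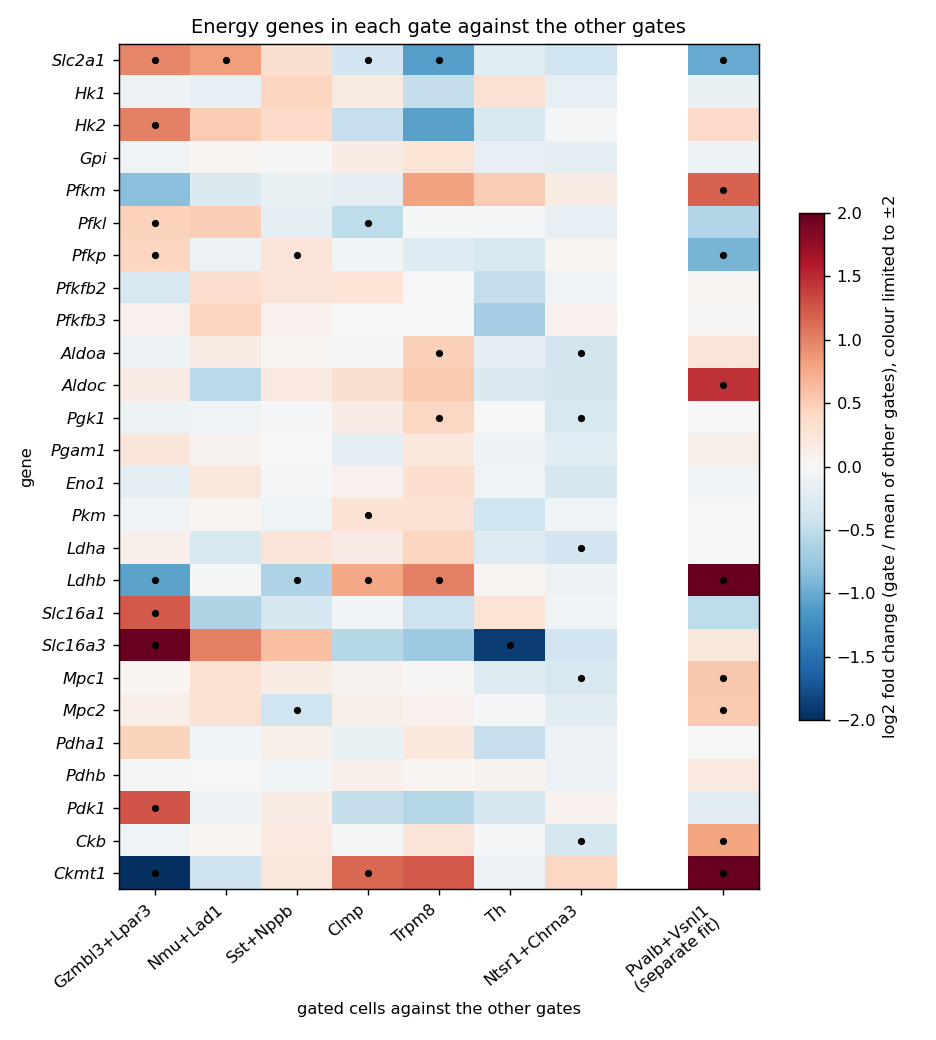
Log2 fold change of the 26 tested members (rows) in each gate against the mean of the other gates (columns), red above 0 and blue below it with colour limited to ±2, and a black dot where the adjusted p was under 0.05. Gzmbl3+Lpar3 cells hold 9 dots, and the Pvalb+Vsnl1 column comes from a separate fit with sums from 1 cell up. Dots in that column rest mostly on single cells and are not read as calls.

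Gzmbl3+Lpar3 cells carried the most differences of the 7 fitted gates: 7 members were higher and 2 lower. Over all genes tested in that gate, 9.25% were higher and 6.39% lower, 15.6% in all. The higher members included the glucose transporter, both plasma membrane lactate transporters on the list, hexokinase 2 and a kinase that restrains pyruvate oxidation. The lower ones were the B subunit of lactate dehydrogenase and mitochondrial creatine kinase. The median log2 fold change over the 26 tested members was 0.06, against 0.02 over all genes tested.

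Slc2a1 encodes GLUT1, a high-affinity glucose transporter. In the 8 Gzmbl3+Lpar3 sums it ran from 299 to 477 CPM with a median of 343, against 45.9 to 488 CPM with a median of 178 in the 53 sums of the other gates. Every Gzmbl3+Lpar3 sum stood above the mean of the other gates in its own batch (8 of 8), and the highest came from batch 28-3. On the log2 scale the difference was 0.97 ± 0.15 (SE; edgeR adjusted p = 4.59e-06).

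Hk2, the inducible hexokinase that traps glucose in the cell, lay between 45.9 and 151 CPM (median 77.0) in Gzmbl3+Lpar3 sums and between 6.33 and 130.2 CPM (median 38.8) in the others. It was higher in 7 of 8 batches, by a log2 fold change of 1.00 ± 0.26 (SE; edgeR adjusted p = 0.00478). The next committed step of glycolysis, phosphofructokinase, had 2 called forms. Pfkl, the liver-type phosphofructokinase, had 71.0 to 113 CPM (median 87.0) against 26.7 to 159 CPM (median 74.0), a log2 fold change of 0.46 ± 0.16 (SE; edgeR adjusted p = 0.0410). The platelet-type enzyme Pfkp had a log2 fold change of 0.42 and was also called. These 3 calls were less stable than the others: with at least 5 cells per sum, and with cells thinned to 30000 UMIs, none of the 3 kept an adjusted p under 0.05. After thinning, the log2 fold changes were 0.78 for Hk2 (adjusted p = 0.0572), 0.38 for Pfkl (adjusted p = 0.287) and 0.41 for Pfkp (adjusted p = 0.0551), the last close to its 0.42 without thinning. The Pfkl call was the weakest, kept under only 3 of 10 alternatives. It was also lost when any 1 of batches 20, 22, 24, 26, 28-3, 29 and 31 was left out. Hk2 and Pfkp kept their calls whichever batch was left out.

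Both lactate transporters were higher. Slc16a1 encodes MCT1, which moves lactate and pyruvate with protons. Its level was 139.7 to 331 CPM (median 202) in Gzmbl3+Lpar3 sums, against 34.2 to 217 CPM (median 94.2) in the other gates, and all 8 batches pointed the same way. Its log2 fold change came to 1.23 ± 0.17 (SE; edgeR adjusted p = 1.18e-06). Slc16a3 encodes MCT4, a transporter known for lactate export from glycolytic cells. It ran from 56.5 to 159 CPM (median 89.9) in Gzmbl3+Lpar3 sums and from 0 to 195 CPM (median 25.3) in the other sums. Among the sums of the other fitted gates, those above 100 CPM were Sst+Nppb sums of batches 25 and 31. On the log2 scale the difference was 1.98 ± 0.34 (SE; edgeR adjusted p = 3.16e-05), higher in 8 of 8 batches.

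Pdk1, which phosphorylates and inhibits pyruvate dehydrogenase, had 47.7 to 103 CPM (median 83.5) in Gzmbl3+Lpar3 sums, against 0 to 99.0 CPM (median 37.7) in the others. It was higher in 8 of 8 batches, with a log2 fold change of 1.26 ± 0.23 (SE; edgeR adjusted p = 8.47e-05). The genes for both subunits of the E1 component of that dehydrogenase, Pdha1 and Pdhb, had gate medians of 63.6 and 262 CPM in these cells and were not called.

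In the other direction, Ldhb had 15.8 to 142 CPM (median 79.1) in Gzmbl3+Lpar3 sums and 30.1 to 361 CPM (median 153) in the other sums. It was lower in 8 of 8 batches, by a log2 fold change of -1.08 ± 0.22 (SE; edgeR adjusted p = 0.000355). Ldha was not called there, with gate medians of 684 CPM in Gzmbl3+Lpar3 sums and 483 to 803 CPM in the other gates. Ckmt1, the mitochondrial creatine kinase, had 0.698 to 7.91 CPM (median 2.48) against 0 to 127 CPM (median 16.6), again lower in 8 of 8 batches. Its log2 fold change was -2.51 ± 0.55 (SE; edgeR adjusted p = 0.000912). Ckb, the cytosolic form, was not called and had a gate median of 545 CPM in Gzmbl3+Lpar3 sums.

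Other measures moved with this gate. The vessel markers in the counts summed to 5.51 to 21.6 CPM (median 11.1) in Gzmbl3+Lpar3 sums, against gate medians of 0 to 7.11 CPM elsewhere, where single sums reached 114 CPM. Flt1, a receptor for vascular endothelial growth factor, was called higher with a log2 fold change of 4.55 ± 0.88 (SE; edgeR adjusted p = 0.000222) at a median of 9.81 CPM. Cldn5, an endothelial junction gene, was at 0 UMIs in the same sums. Of the 8 neuronal markers, 5 were called lower in these cells. Depth per cell was the highest of the fitted gates. With cells thinned to 30000 UMIs, and those with fewer left out, the log2 fold changes were 1.12 for Slc2a1 and 1.41 for Slc16a1. They were 1.88 for Slc16a3, 1.33 for Pdk1, -1.32 for Ldhb and -3.35 for Ckmt1. Each of these changes had an edgeR adjusted p under 0.05. The part of the vessel and neuronal markers in these differences was not tested.

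**Figure D2:**
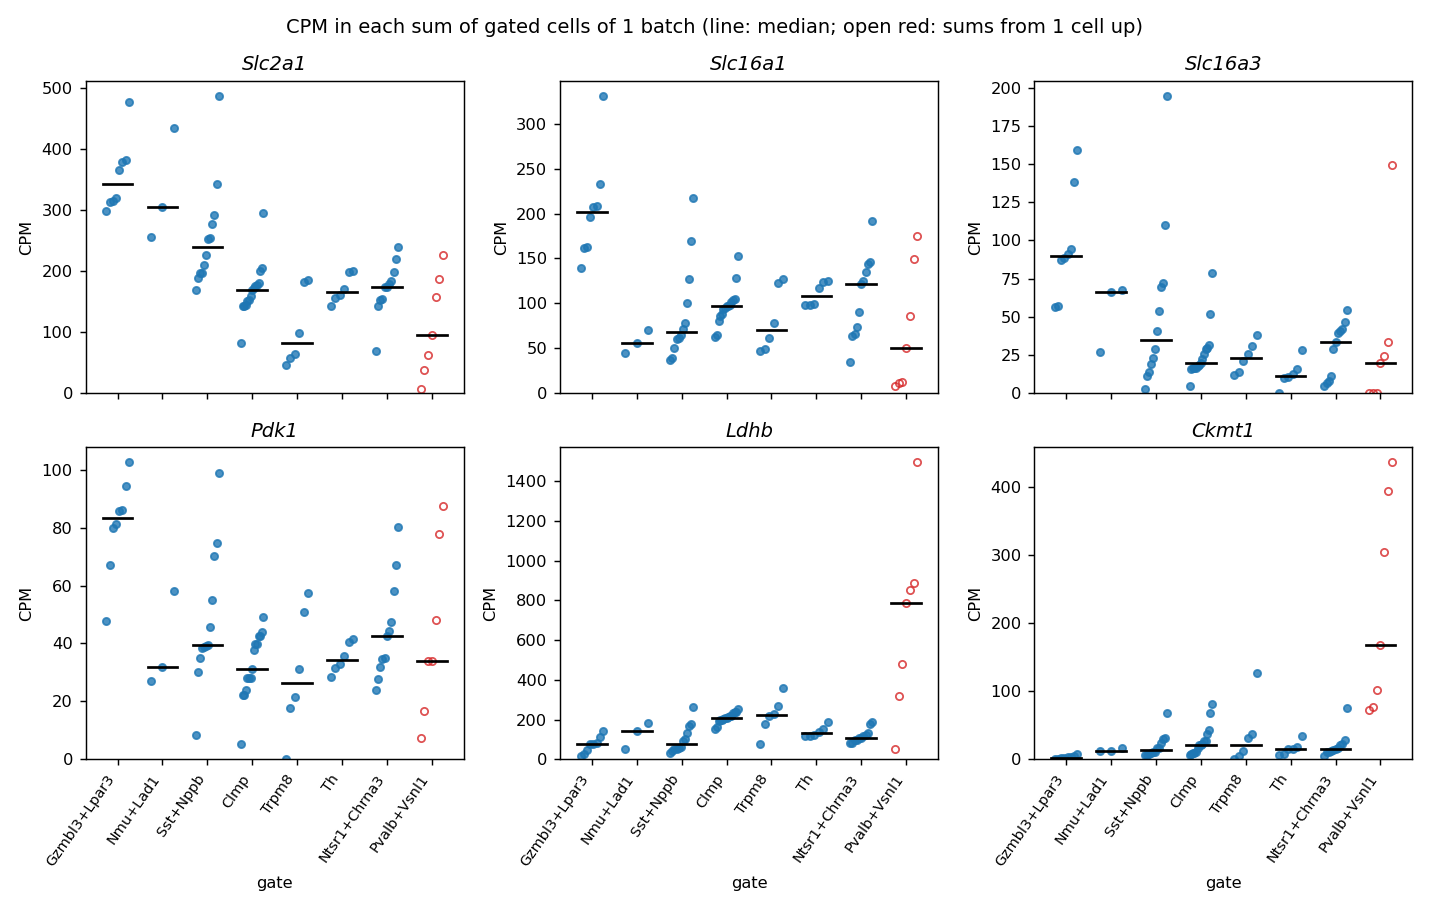
CPM of 6 members in each sum of the gated cells of 1 batch, with gates on the horizontal axis, 1 point per sum and a line at the median. In the Slc2a1 panel the 8 Gzmbl3+Lpar3 sums sit between 299 and 477 CPM, and open red points mark Pvalb+Vsnl1 sums of 1 cell or more.

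The hypoxia response list holds genes that hypoxia-inducible factors are known to raise in many tissues, and like the members it was drawn up with earlier results of these data known. In Gzmbl3+Lpar3 cells, 8 of its 13 tested genes were higher and none lower, against 9.25% higher and 6.39% lower of all genes tested. The median log2 fold change of the list was 0.46, against 0.02 over all genes tested. Ero1a, an oxidase of protein folding in the endoplasmic reticulum, had 65.4 to 169 CPM (median 125) against 33.3 to 166 CPM (median 64.6), a log2 fold change of 0.95 ± 0.20 (SE; edgeR adjusted p = 0.000478). Ddit4, an inhibitor of mTOR signalling, had a log2 fold change of 1.11 ± 0.30 (SE; edgeR adjusted p = 0.00831) and was higher in 8 of 8 batches. Egln3, an oxygen-sensing prolyl hydroxylase, was scarce. Its median was 3.00 CPM against 0.328 CPM, with a fold change of 2.83 ± 0.86 on the log2 scale (SE; edgeR adjusted p = 0.0189), but only 4 of 8 batches stood higher. Hif1a, the oxygen-regulated subunit itself, had 329 to 427 CPM (median 364) against 115 to 455 CPM (median 219), higher in 8 of 8 batches by 0.77 ± 0.15 on the log2 scale (SE; edgeR adjusted p = 0.000135). Vegfa, Kdm3a, Mxi1, P4ha1 and Ankrd37 were tested and not called.

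**Figure D3:**
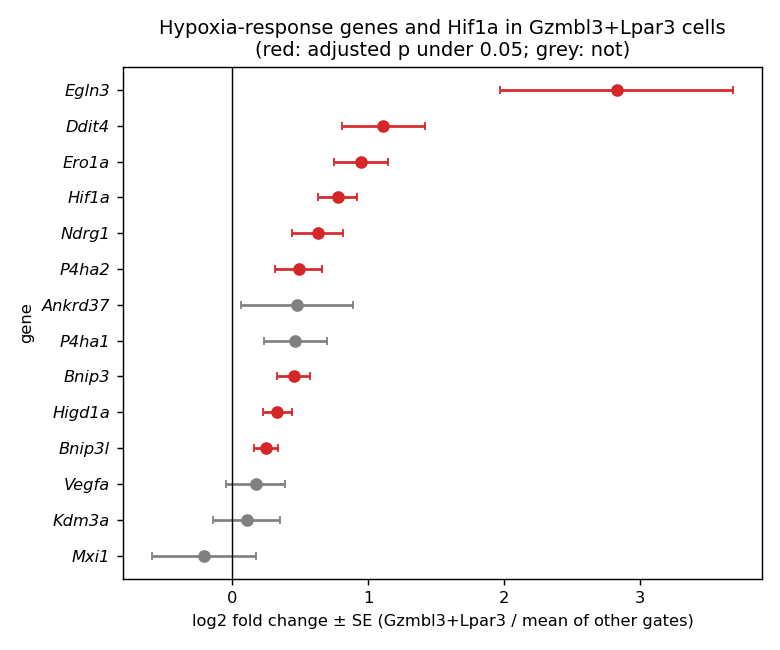
Log2 fold change with its SE for 13 hypoxia-response genes and Hif1a (rows) in Gzmbl3+Lpar3 cells against the mean of the other gates. Red points had an adjusted p under 0.05 and lie to the right of 0, and 5 genes of the list are grey.

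Related lists in the same cells were mixed, in a gate where 9.25% of all genes tested were higher and 6.39% lower. Of the glycogen list, 2 genes were higher and 1 lower of 11 tested. Pygl, the liver-type glycogen phosphorylase, had a log2 fold change of 1.23 ± 0.27 (SE; edgeR adjusted p = 0.000829), and Ppp1r3c, which targets a phosphatase to glycogen, -2.07 ± 0.72 (SE; edgeR adjusted p = 0.0398). Of the 17 tested genes of the tricarboxylic acid cycle, Cs (citrate synthase, 0.78) and Fh (fumarase, 0.39) were higher and Mdh2 (malate dehydrogenase, -0.34) was lower on the log2 scale. Slc25a13, an aspartate-glutamate carrier, was higher among 8 tested shuttle genes at a median of only 4.36 CPM. Pdk3, another pyruvate dehydrogenase kinase, was higher by 0.67 on the log2 scale, in 5 of 8 batches. Rpia of the pentose phosphate pathway was lower, with a log2 fold change of -1.05.

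Nmu+Lad1 cells had sums in only 3 batches, and 1 member was called, against 1.4% of all genes higher, 0.734% lower and 2.13% in either direction. Slc2a1 had 435, 304 and 256 CPM in Nmu+Lad1 sums of batches 25, 26 and 29, against 45.9 to 488 CPM (median 184) in the 58 other sums. All 3 lay above the median of the other gates. The log2 fold change was 0.83 ± 0.23 (SE; edgeR adjusted p = 0.0322). Without batch 25 it was 0.53 and the adjusted p was 0.486, and without batch 26 the adjusted p was 0.262. In these cells Pgm2, a phosphoglucomutase, and Ndrg1, a stress-response gene of the hypoxia list, were also higher, by 1.02 and 1.13 on the log2 scale.

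Trpm8 cells carried 3 higher members and 1 lower one, against 3.43% of all genes higher, 3.02% lower and 6.45% in either direction. Slc2a1 had 45.9 to 185 CPM (median 81.6) in the 6 Trpm8 sums, against 69.6 to 488 CPM (median 197) in 55 other sums. It was lower than the other gates in 4 of 6 batches, and the highest Trpm8 sums were those of batches 30 and 34. The log2 fold change was -1.10 ± 0.21 (SE; edgeR adjusted p = 0.000400). Ldhb ran the other way, with 76.6 to 361 CPM (median 223) against 15.8 to 265 CPM (median 132), a log2 fold change of 1.02 ± 0.23 (SE; edgeR adjusted p = 0.00343). Aldoa, an aldolase of the middle of glycolysis, had 1117 to 2302 CPM (median 1540.4) against 685 to 1973 CPM (median 1052) and was higher in 6 of 6 batches, by 0.48 ± 0.11 on the log2 scale (SE; edgeR adjusted p = 0.00439). Pgk1, the first ATP-forming enzyme of glycolysis, was higher by 0.41 ± 0.11 on the log2 scale (SE; edgeR adjusted p = 0.0151). Neuronal markers moved with these genes: 7 of 8 were higher in Trpm8 cells, and 3 tested genes of the tricarboxylic acid cycle (Suclg1, Idh1 and Mdh2) were too. The count of called members was 8 without batch 28-1, whose Trpm8 sum held 3 cells and 70217 UMIs, 7 without batch 30, and 2 without batch 20 or without batch 31. The part of the markers in these differences was not tested. With cells thinned to 30000 UMIs the calls of Slc2a1 (log2 fold change -0.996, adjusted p = 0.0521), Aldoa (0.31, adjusted p = 0.202) and Pgk1 (0.29, adjusted p = 0.317) were lost, and with a gate of 50 CPM those of Ldhb, Aldoa and Pgk1 were. Thinning also left out cells with under 30000 UMIs, so the depth and the set of cells changed together.

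Clmp cells were the most numerous, with sums in 15 batches, and had 3 higher and 2 lower members, against 7.53% of all genes higher, 5.02% lower and 12.6% in either direction. Ldhb had 153 to 251 CPM (median 209.8) in Clmp sums and 15.8 to 361 CPM (median 116) in 46 others. It was higher in 14 of 15 batches, by 0.78 ± 0.15 on the log2 scale (SE; edgeR adjusted p = 0.000119). Ckmt1 had 5.96 to 81.5 CPM (median 21.0) against 0 to 127 CPM (median 12.4), a log2 fold change of 1.15 ± 0.36 (SE; edgeR adjusted p = 0.0218). That call was lost without batch 30 or 34 and with cells of several gates left out. It was also lost with no batch term and with Pvalb+Vsnl1 sums among the other gates. Pkm, pyruvate kinase, was higher by 0.28 ± 0.08 on the log2 scale (SE; edgeR adjusted p = 0.0115), in 14 of 15 batches. The Pkm call was lost with a gate of 50 CPM and with no batch term. With cells thinned to 30000 UMIs it was lost too (log2 fold change 0.19, edgeR adjusted p = 0.288). The lower members were Pfkl, with 28.8 to 89.8 CPM (median 60.9) against 26.7 to 159 CPM (median 83.5), and Slc2a1, with 81.8 to 296 CPM (median 169) against 45.9 to 488 CPM (median 199). Their log2 fold changes were -0.51 ± 0.12 (SE; edgeR adjusted p = 0.00277) and -0.38 ± 0.12 (SE; edgeR adjusted p = 0.0224). Outside the members, Ppp1r3c was higher in 15 of 15 batches by 2.48 ± 0.44 on the log2 scale (SE; edgeR adjusted p = 3.59e-05), and Txnip, an inhibitor of glucose uptake, was lower, with a log2 fold change of -0.94. Of the markers, Snap25 and Prph of the neuronal list, Col1a1, a collagen gene of fibroblasts, and S100b, Sparc and Cdh19 of the glial list were higher in Clmp cells. The log2 fold changes of the glial genes were 1.11 for S100b, 0.96 for Sparc and 2.99 for Cdh19, the last at a median of 0.905 CPM. Pooled over all kept cells, those rich in glial RNA had 258 CPM of Ldhb against 162 CPM in the other cells. For Ckmt1 the pooled levels were 70.4 CPM against 26.0 CPM. Within the 13 batches with at least 3 cells rich in glial RNA, the medians were 185 CPM against 158 CPM for Ldhb, higher in 9. For Ckmt1 the medians over batches went the other way, 14.0 CPM against 24.5 CPM, higher in 5 of 13. With the cells rich in glial RNA left out, the log2 fold changes in Clmp cells were 0.77 for Ldhb (adjusted p = 0.000220) and 1.02 for Ckmt1 (adjusted p = 0.0395). The Slc2a1 call was lost with a gate of 50 CPM, where the log2 fold change was -0.18, with no batch term, with Pvalb+Vsnl1 sums among the other gates, and without batch 25, 30 or 33. Without batch 30 the count of called members was 3, and it was 2 with no batch term or with Pvalb+Vsnl1 sums among the other gates, where the Ldhb call was lost.

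Sst+Nppb cells had 1 higher and 2 lower members. Of all genes, 6.8% were higher and 3.06% lower there, 9.86% in all. Ldhb had 30.1 to 265 CPM (median 76.9) in the 12 Sst+Nppb sums, against 15.8 to 361 CPM (median 153) in 49 other sums, and was lower in 10 of 12 batches. The log2 fold change was -0.62 ± 0.18 (SE; edgeR adjusted p = 0.0183). Mpc2, a subunit of the mitochondrial pyruvate carrier, had 81.7 to 314 CPM (median 218) against 138 to 420.0 CPM (median 274), a log2 fold change of -0.39 ± 0.10 (SE; edgeR adjusted p = 0.00747). Pfkp was higher by 0.26 ± 0.08 on the log2 scale (SE; edgeR adjusted p = 0.0301). In the same cells the creatine transporter Slc6a8, which is not among the members, had 12.3 to 335 CPM (median 61.6) against 5.50 to 110.2 CPM (median 29.6), higher by 1.31 ± 0.27 on the log2 scale (SE; edgeR adjusted p = 0.000749). Of the hypoxia list, Egln3 and Ddit4 were higher and Ndrg1 lower. The neuronal marker Tubb3 was lower there. The Pfkp call was lost under 6 of the alternatives tried, and without batch 26 or 29 only 1 member was called. The Ldhb call was lost with a gate of 50 CPM, with cells of several gates left out, and with no batch term. It was also lost without batch 20, 26 or 29.

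Ntsr1+Chrna3 cells had 5 lower members and no higher one, against 1.96% of all genes lower, 2.11% higher and 4.07% in either direction. The 5 were spread over the pathway: Aldoa, Pgk1, Ldha, Mpc1 (the partner subunit of the pyruvate carrier) and Ckb. Aldoa had 685 to 1282 CPM (median 913) in 11 sums of these cells, against 801 to 2302 CPM (median 1127) in 50 others, a log2 fold change of -0.37 ± 0.09 (SE; edgeR adjusted p = 0.0106). Mpc1 was lower in 11 of 11 batches, with 226 to 331 CPM (median 283) against 225 to 474 CPM (median 341) and a log2 fold change of -0.32 ± 0.08 (SE; edgeR adjusted p = 0.00967). Ldha, Pgk1 and Ckb had log2 fold changes of -0.39, -0.33 and -0.35. For all 5, the range of these sums overlapped that of the other gates. Neuronal markers Stmn2, Tubb3 and Uchl1 were lower in these cells too, and Ptprz1 of the glial list was higher, with 8.05 to 60.9 CPM (median 32.8) against 0 to 57.1 CPM (median 10.1) and a log2 fold change of 2.22 ± 0.37 (SE; edgeR adjusted p = 0.000132). With cells rich in glial RNA left out, 4 of the 5 members kept their call, and Ldha had a log2 fold change of -0.37 (adjusted p = 0.0516). The part of the neuronal markers was not tested. Of the shuttle genes, Got1 and Mdh1 were lower and Gpd2 higher. With a gate of 50 CPM in place of 20, and with cells of several gates left out, no member was called, and without batch 20, 28-3 or 34 the count was 3. The Ldha call was kept in only 7 of the 16 fits with a batch left out. It was also lost with Pvalb+Vsnl1 sums among the other gates. Thinning to 30000 UMIs ended the calls of Pgk1 and Mpc1, and at least 5 cells per sum those of Aldoa and Pgk1.

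Th cells had 1 called member, against 0.653% of all genes, 0.484% higher and 0.169% lower. Slc16a3 had 0 to 28.2 CPM (median 11.5) in the 6 Th sums and 2.45 to 195 CPM (median 29.7) in 55 others. It was lower in 6 of 6 batches, by a log2 fold change of -1.90 ± 0.48 (SE; edgeR adjusted p = 0.0401). Leaving out any 1 of batches 20, 25, 26, 29, 33 and 34, which are those with Th sums, ended the call. Hif1a was lower in Th cells, with a log2 fold change of -0.68 ± 0.17 (SE; edgeR adjusted p = 0.0415).

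Pvalb+Vsnl1 cells were too few for the sums used above: 9 cells passed the gate and 4 were assigned to it. After the data were seen, all 9 were taken as sums from 1 cell up in 7 batches, 5 of them of 1 cell, and fitted with the other gates. The spread between these sums is mostly one between single cells, so no p or SE is given here. In that fit 7 members passed the threshold above the other gates and 2 below them, against 6.25% of all genes higher, 9.14% lower and 15.4% in either direction. Ckmt1 had 437 CPM in batch 23, 395 in 27, 102 in 28-3, 168 in 29, 73.1 in 32, 305 in 34 and 76.9 in 35, against 0 to 126 CPM (median 13.2) in the 61 others. The sums of Pvalb+Vsnl1 cells were the high ones, with 3 of 7 inside the range of the others. The difference was 3.95 on the log2 scale. Ldhb had 51.2 to 1497 CPM (median 789.8) against 15.9 to 360.3 CPM (median 138), and the single cell of batch 32 was the low one. The log2 fold change was 2.06. It was 1.45 for Aldoc, the brain-type aldolase, 1.17 for Pfkm, 0.78 for Ckb and 0.53 each for Mpc1 and Mpc2. With each of the 7 batches left out in turn, the log2 fold change ran from 0.85 to 1.32 for Pfkm and from 0.42 to 0.60 for Mpc2. Slc2a1 (-1.01) and Pfkp (-0.93) stood below the other gates in 7 of 7 batches. Of the glial list, S100b had 519 to 2246 CPM (median 1176) in these sums, against 6.17 to 350.1 CPM (median 74.8), and Sox10 and Apoe were also higher in that fit. Their part was not tested.

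Isoform choice was read as the share of one gene's UMIs within its pair or trio, compared within batches by an exact two-sided sign-flip test. Of 64 tests over 12 shares, 2 passed after adjustment. Ldhb made up 17.9% to 26.6% (median 23.6%) of lactate dehydrogenase UMIs in Clmp sums, against 2.02% to 34.3% (median 17.1%) in the other gates. Within batches the mean difference was 6.75 ± 4.73 percentage points (SD, n = 15 batches), higher in 13 of 15 batches (adjusted p = 0.0156, permutation test). Mpc2 made up 21.0% to 44.2% (median 36.3%) of pyruvate carrier UMIs in Sst+Nppb sums and 35.6% to 52.1% (median 46.2%) in the other gates. It was lower in 12 of 12 batches, with a mean difference of -8.97 ± 7.28 percentage points (SD, n = 12 batches; adjusted p = 0.0156, exact permutation test). The Mpc2 difference did not pass with at least 5 cells per sum. That of Ldhb did not pass with cells of several gates left out, nor with Pvalb+Vsnl1 sums among the other gates. Over all alternatives and left-out batches, the Ldhb difference ran from 2.41 to 9.76 percentage points, with adjusted p up to 0.549 (permutation test). Neither difference passed with cells thinned to 30000 UMIs. After thinning the mean difference was -8.82 percentage points for Mpc2 (adjusted p = 0.0925, exact permutation test) and 4.45 for Ldhb (adjusted p = 0.0762, permutation test).

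Gzmbl3+Lpar3 cells had 8 batches, for which the smallest p of the exact permutation test is 0.00781 and the adjusted p was 0.0833, and no share passed there. Ldhb made up 2.02% to 17.5% (median 9.64%) of lactate dehydrogenase UMIs in these sums, against 4.94% to 34.3% (median 20.1%) in the others. It stood below the other gates in all 8 batches, with a mean difference of -9.42 ± 2.93 percentage points (SD, n = 8 batches). The Ckmt1 share stood below and the Pfkl share above the other gates in all 8 batches too, with mean differences of -3.21 ± 3.81 percentage points for Ckmt1 and 4.37 ± 2.18 for Pfkl (SD, n = 8 batches). Hk2 made up a median of 75.4% of hexokinase UMIs there, against 50.3% in the other gates, and stood above them in 7 of 8 batches. In Sst+Nppb cells the Ldhb share had a median of 8.73% against 19.8% in the other gates, below them in 11 of 12 batches (adjusted p = 0.0833, exact permutation test). In all, 12 of the 64 tests had an unadjusted p under 0.05.

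**Figure D4:**
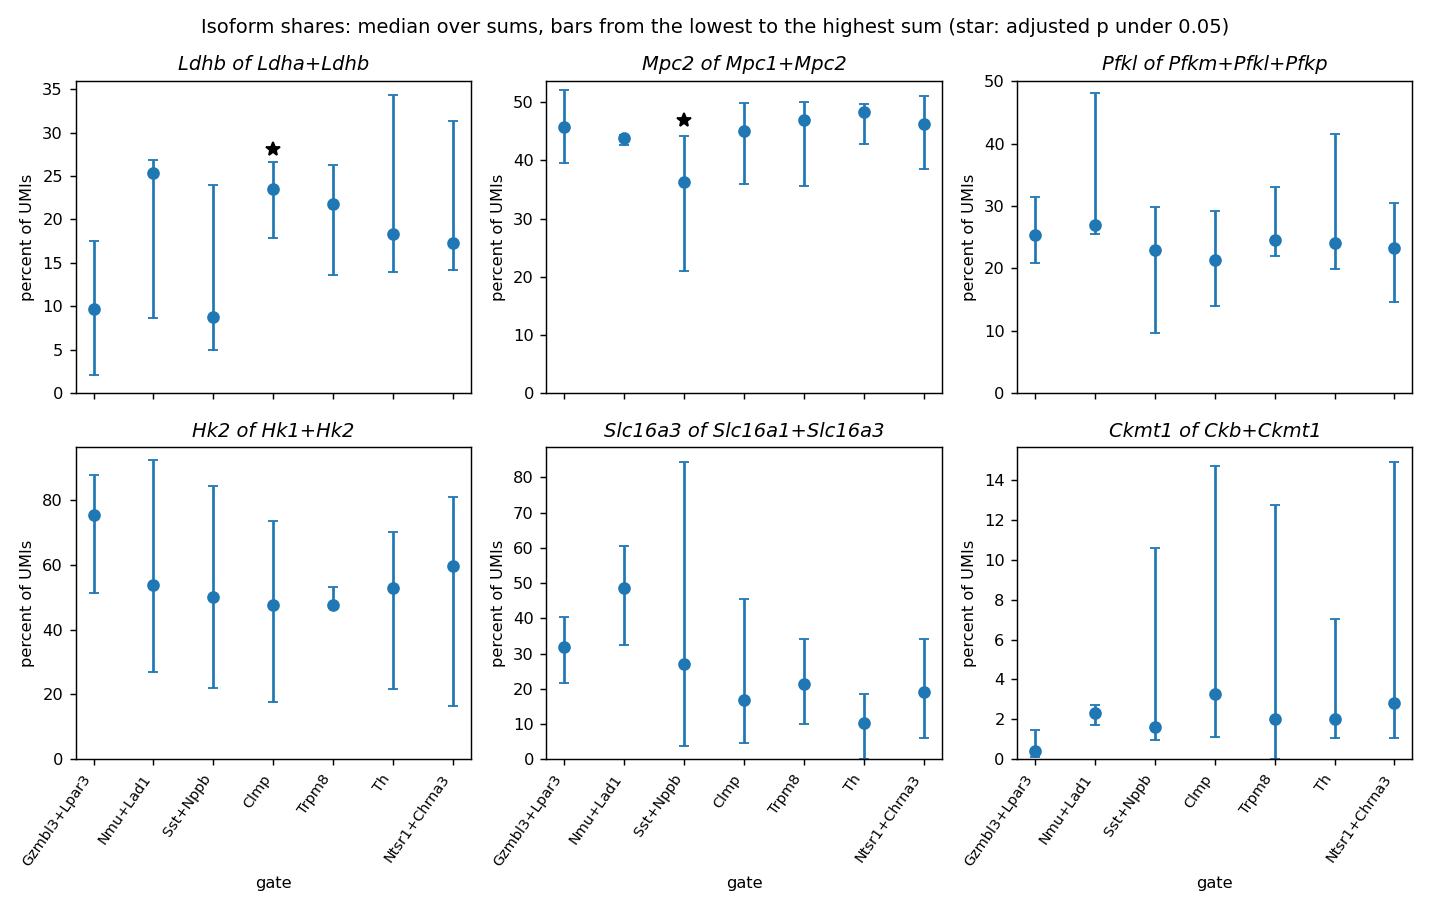
Share of UMIs (percent) of 6 genes within their pair or trio, by gate. Points are medians over sums, bars run from the lowest to the highest sum, and stars mark the 2 tests with an adjusted p under 0.05, which are Ldhb in Clmp cells and Mpc2 in Sst+Nppb cells.

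In the Pvalb+Vsnl1 sums taken after the data were seen, Ldhb was 9.59% to 74.6% (median 50.1%) of lactate dehydrogenase UMIs, against a median of 18.5% in the other gates. Ckmt1 was 5.54% to 40.7% (median 22.1%) of creatine kinase UMIs, against a median of 2.31% in the other gates, and stood above them in 7 of 7 batches.

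Several members were scarce in all cells. Slc2a3, the glucose transporter known from neurons as GLUT3, was listed at 0 UMIs in 967 kept cells, which allows a share of up to 0.310% of cells with a UMI. Eno2, neuron-specific enolase, had 130 UMIs over all kept cells (0.617 CPM), Tpi1, triose phosphate isomerase, 142 UMIs (0.674 CPM), Pdk2 262 UMIs (1.24 CPM) and Pdk4 9 UMIs (0.0427 CPM). These 5 did not pass the filter, so their levels were not compared between gates. The Slc2a3, Eno2 and Pdk2 shares were among the 64 share tests. With a share of 0 in every sum, the Slc2a3 tests could not pass. Since Tpi1 is an enzyme that every glycolytic cell uses, low values of this kind say little about the transcripts themselves. In sums of the 7 fitted gates the Slc2a3 share was 0, the Eno2 share reached at most 0.288% and the Pdk2 share at most 13.6%, and with so few UMIs none is read as isoform choice.

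Over all kept cells, Aldoa was at 1106 CPM, Eno1 at 973 CPM and Ldha at 639 CPM. Gpi, Pgam1, Aldoc and Eno1 were called across gates but in no single gate. Gpi, which turns glucose 6-phosphate into fructose 6-phosphate, had gate medians of 339.5 to 419 CPM, the smallest ratio of the highest to the lowest gate median among the called members (1.23). Across batches of all kept cells, Gpi ran from 329 to 423 CPM and Pdhb from 224 to 293 CPM, whereas Ckmt1 ran from 11.1 CPM in batch 31 to 51.5 CPM in batch 27 and Slc16a3 from 16.6 CPM in batch 28-1 to 73.9 CPM in batch 31. Of the 26 members, 6 were highest and 7 lowest in batch 28-1, which had the fewest UMIs. Batches were described and not compared, since the labels give no time point for them.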

How the data were processed

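The authors deposited whole-number UMI counts per gene and cell, 1 table per batch, for which the submitters' processing notes name the build Rnor_6.0 and the tools STAR, featureCounts of Subread, SAMtools and UMI-tools. Versions and the strand setting are not given in the sources used here, so reads of overlapping and antisense genes could not be told apart. Batch 21, labelled with 40 cells, holds the same counts as batch 20 and was left out.

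Cells with at least 2000 detected genes were gated, and a cell that passed several gates went to the gate with the highest score if that score was at least 3 times the next. The score was the lowest, over the gate's genes, of CPM divided by the gene's 98th percentile. UMIs were summed per batch and gate from at least 3 cells and fitted with edgeR 4.0.16 in R 4.3.3 (TMM, filterByExpr with a minimum count of 10, quasi-likelihood F-tests) with gate and batch as terms. The batch term pairs the gates' sums that came from the same batch. Each gate was set against the mean of the other gates, and p-values were Benjamini-Hochberg adjusted over all genes tested, with a threshold of 0.05. Gate genes were left out of the genes counted. CPM values use TMM library sizes for sums. SE was obtained as the size of the log2 fold change over the root of F. Isoform shares used sums with at least 20 UMIs of the pair and at least 6 batches, adjusted over all 64 tests. Intervals and limits on counts of 0 cover counting error only. Doublets were not called, since cells were picked singly. The summed level of the glial marker list is not reported here.

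Named were all called members up to 6 per gate and direction by size of change, and up to 3 called genes per other list and direction. Pfkp in Gzmbl3+Lpar3 cells, the Ckmt1 and Slc16a3 spans and the Gpi span were named beyond that rule after their values were seen. The members and lists were chosen with earlier results of these data known. Alternatives were RLE factors, no low-count filter, DESeq2 1.42.0, a 50 CPM gate, cells of several gates left out, at least 5 cells per sum, thinning to 30000 UMIs per cell, cells rich in glial RNA (at least 200 CPM summed over core glial markers; 82 of the kept cells) left out, no batch term, at least 50 UMIs of a pair, each batch left out in turn and, added after seeing the data, Pvalb+Vsnl1 sums from 1 cell. Thinning left out the 31 gated cells with under 30000 UMIs, and 58 sums remained in place of 61. The fit and the sign-flip test were tested on simulated data.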

Additional observations from a re-analysis of the deposited data

Results flagged for a closer look

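Of 78 member-by-gate groups of 4 to 10 sums, 5 held a sum far from the rest of its group, and chance alone gives about 1 such group in 20. Slc2a1 in Gzmbl3+Lpar3 cells of batch 28-3 stood at 477 CPM, with the nearest sum at 382 CPM and the lowest at 299 CPM. Aldoa in the same sum was at 1445 CPM, with the nearest at 1107 CPM. Pdhb in Gzmbl3+Lpar3 cells of batch 32 was low at 189 CPM, with the nearest at 242 CPM. Pfkm in Th cells of batch 26 was at 55.2 CPM, with the nearest at 36.5 CPM. Ckmt1 in Trpm8 cells of batch 25 was at 127 CPM, with the nearest at 37.7 CPM and the lowest at 0. The causes were not tested.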

How the results depend on the processing

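No called member reversed its direction. Of 28 called differences, 8 kept their call under every alternative and every left-out batch: Slc2a1, Ldhb, Slc16a1, Slc16a3, Pdk1 and Ckmt1 in Gzmbl3+Lpar3 cells, Pfkl in Clmp cells and Mpc2 in Sst+Nppb cells. The following counts of called members moved by over 1.5 times, and the cause was not tested. The share of all genes called under each alternative is not given here. A change in member calls can therefore not be told from a change in calls over all genes. There were 43 sums with a 50 CPM gate and 36 with at least 5 cells per sum, against 61. With no low-count filter they were 5 in Sst+Nppb and 9 in Trpm8 cells. With DESeq2 they were 8 in Trpm8 and 2 in Th cells. With a 50 CPM gate they were 12 across gates, 1 in Trpm8, 3 in Clmp, 0 in Th and 0 in Ntsr1+Chrna3 cells, and 6 isoform shares passed. With cells of several gates left out they were 10 in Clmp, 0 in Th and 0 in Ntsr1+Chrna3 cells, and 1 share passed. With at least 5 cells per sum they were 12 in Clmp cells, and 1 share passed. With thinned cells they were 2 in Trpm8, 0 in Th, 3 in Ntsr1+Chrna3 and 2 in Nmu+Lad1 cells, and 0 shares passed. Without the batch as replicate block they were 2 in Clmp and 0 in Th cells, against 17 across gates and 8 in Gzmbl3+Lpar3 cells. With Pvalb+Vsnl1 sums among the gates they were 1 in Trpm8, 2 in Clmp and 0 in Nmu+Lad1 cells, and 1 share passed. Leaving out each batch in turn gave 18 to 20 across gates, 8 to 9 in Gzmbl3+Lpar3, 0 to 2 in Nmu+Lad1 and 1 to 3 in Sst+Nppb cells. The counts were 3 to 6 in Clmp, 2 to 8 in Trpm8, 0 to 2 in Th and 3 to 6 in Ntsr1+Chrna3 cells, and 2 to 4 shares passed. Nmu+Lad1 cells had 3 sums, and Th and Trpm8 cells 6 each.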
